A study of Mus musculus with 8 samples.

Results

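From the 27179 genes counted in neonatal cardiomyocytes (NCMs), 10 were taken among those that capture fatty acids from circulating lipoproteins and deliver them to the cell interior, namely Lpl, Lmf1, Gpihbp1, Angptl4, Cd36, Vldlr, Slc27a1, Fabp3, Fabp4 and Fabp5. They were chosen by symbol, each was found as a single row through its Entrez gene number, and all 10 passed the filter on low counts. RNA was sequenced from 8 C57Bl/6 J male newborns, 1 heart per library, with 4 libraries from offspring exposed in utero to filtered air (FA, replicates 2, 3, 4 and 6) and 4 from offspring exposed to diesel exhaust (DE, replicates 1, 3, 5 and 7). Dams were in FA or DE from E0.5 to E17.5, with DE given for part of the day on weekdays, and all had been mated in FA. Hearts of both groups were taken on postnatal day 0, trimmed of atria and vessels, dissociated, and plated with Ara-C so that fibroblasts would attach, and the cells left in suspension were frozen for RNA. The cells were thus enriched for cardiomyocytes and were not sorted, and the litter of each pup was not given in the sources used here.

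The heart takes most of its energy from fatty acids once it has adapted to life after birth. Circulating triglyceride in lipoproteins is cut by lipoprotein lipase (LPL), an enzyme that cardiomyocytes make and release, that matures in the endoplasmic reticulum with the help of LMF1, and that GPIHBP1 carries across capillary endothelium to the vessel lumen. ANGPTL4 is a secreted inhibitor that inactivates the enzyme. The freed fatty acids enter cells with the help of CD36 and of transport proteins such as FATP1 (Slc27a1), the VLDL receptor (Vldlr) binds triglyceride-rich particles, and small fatty acid-binding proteins (FABPs) carry the fatty acids through the cytosol.

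In the DE libraries the RNA of the lipase itself, of its maturation factor and of its endothelial carrier was not called different, while the RNA of the inhibitor, of all 3 uptake genes and of the heart-type FABP was lower and that of Fabp5 was higher. Angptl4 was 4.16-fold lower, Slc27a1 2.01-fold, Cd36 1.66-fold, Fabp3 1.62-fold and Vldlr 1.44-fold, and Fabp5 was 2.09-fold higher. In all, 5 of the 10 genes were called lower, where the background was 2.22% of the 14966 tested genes, and 1 was called higher, where it was 3.58%. A call was an adjusted p of 0.05 or less in the quasi-likelihood test of edgeR, adjusted by Benjamini-Hochberg over all tested genes, together with a level in the higher group at least 25% above that in the lower group (the 25% difference), and 5.80% of genes were called in either direction. For the same 6 genes the values of the groups did not overlap, as they did not for 14.7% of tested genes. The median log2 fold change of the 10 genes was -0.30, against 0.0037 for all tested genes. The 10 genes were chosen with earlier results of these data known, so these values describe them and do not test them. RNA was measured in bulk, so fewer cells of a type and less RNA per cell cannot be told apart.

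**Figure D1:**
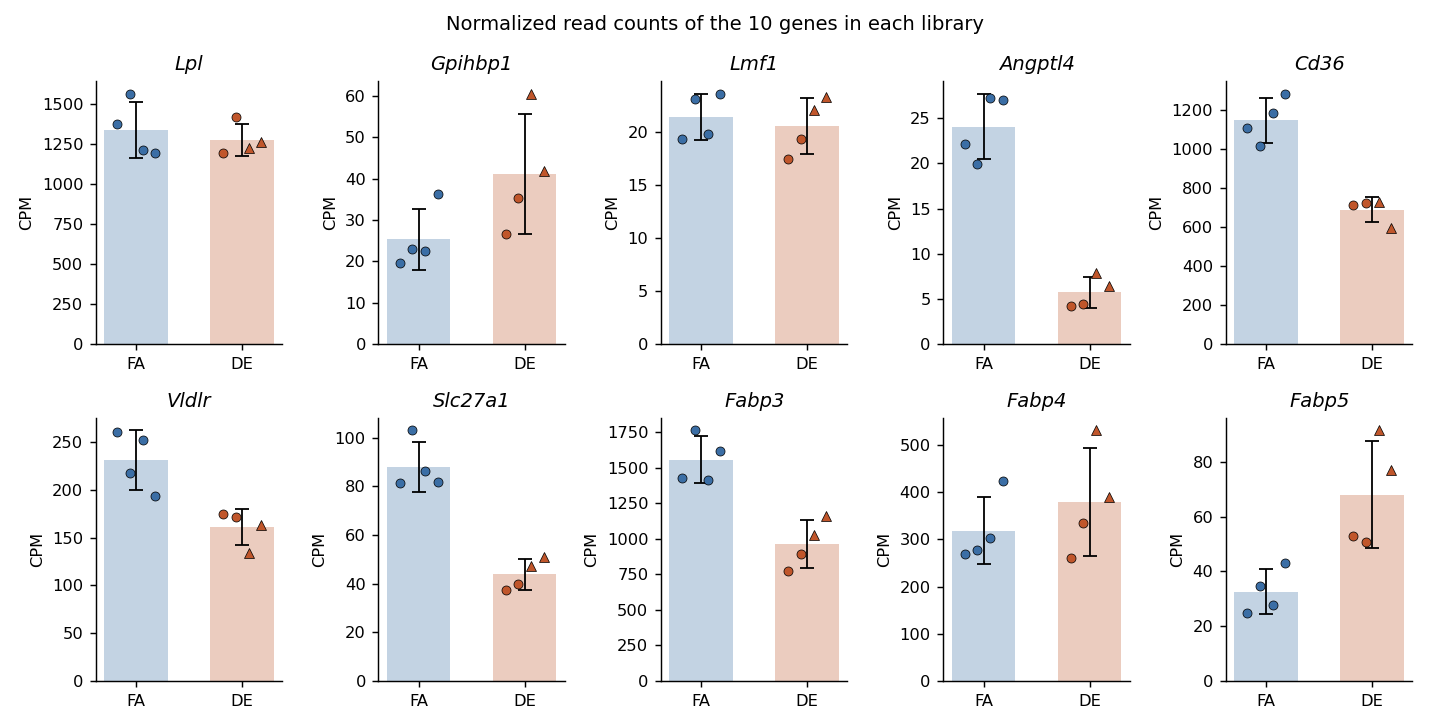
Normalised read count (CPM, counts scaled to library size) of each of the 10 genes in the 8 libraries, 1 panel per gene, each with its own axis. Points are libraries (circles, sample names with the number 11, triangles, the number 12), bars are group means and error bars the SD of 4 libraries, and for Angptl4 the 4 DE libraries lie between 4.21 and 7.83 CPM, all below the FA libraries.

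Libraries held between 17943024 and 39839737 counts. The summed CPM of 10 cardiomyocyte markers overlapped between groups, at 55325 to 59783 in FA and 52391 to 61602 in DE, but 9 of the 10 fold changes were below 0. Pln was called lower and Myh7 higher, and DESeq2 called 2 lower and 1 higher. At an unadjusted p under 0.05, 3 were lower and 1 higher. The summed CPM of 8 fibroblast markers did not overlap, at 2008 to 3461 in FA and 3655 to 6177 in DE, with all 8 fold changes above 0 and Col1a1 and Dcn called higher (6 of the 8 by DESeq2). For the 13 endothelial markers the sums were 1269 to 1667 in FA and 1381 to 2056 in DE, with 11 of the 13 fold changes above 0, a median of 0.27 and Robo4 called higher (4 of the 13 by DESeq2 and 6 at an unadjusted p under 0.05). The 9 macrophage markers summed to 17.4 to 22.5 CPM in FA and 23.5 to 34.5 CPM in DE, which did not overlap, with 0 of 6 tested called by edgeR, 1 by DESeq2 and 2 at an unadjusted p under 0.05. Of 6 mural and 5 erythroid markers tested, 0 were called by edgeR or DESeq2, with 1 mural and 0 erythroid markers at an unadjusted p under 0.05, and both sums overlapped, at 457.5 to 659.2 CPM in FA and 394.2 to 552.9 CPM in DE for mural cells and at 757.6 to 1878 and 1206 to 2019 CPM for erythroid cells. The adipocyte markers Adipoq, Lep, Plin1, Cidec, Cfd and Retn were at or near 0, with at most 0.143 CPM in any library. Of the other two adipocyte markers, Ucp1 was not called and Cidea, a lipid droplet gene, was called lower, with means of 16.4 ± 2.29 CPM over 4 FA libraries and 8.61 ± 0.91 CPM over 4 DE libraries (± SD). The part of these marker differences in the results that follow was not tested. Sample names hold a number whose meaning is not stated, 12 for DE replicates 3 and 5 and 11 for every other library. Values within the number 11 are therefore given for the 10 genes, for the called genes of lipoprotein handling and fatty acid transport, and for Cav1.

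Lpl (Entrez gene 16956, chr8:68880555-68906932 of GRCm38.p6) encodes the lipase. Its normalised read counts in FA replicates 2, 3, 4 and 6 were 1377, 1567, 1214 and 1196 CPM, and in DE replicates 1, 3, 5 and 7 they were 1196, 1225, 1264 and 1421 CPM. The groups overlapped along most of their ranges. A log2 fold change of -0.07 (SE 0.11, adjusted p = 0.731) was found, and it was -0.04 within the libraries named with 11. Lmf1 (chr17:25579174-25662831), which encodes the chaperone that lets the lipase fold, had 19.3, 23.1, 19.8 and 23.5 CPM in FA and 17.46, 22.1, 23.3 and 19.3 CPM in DE. These values overlapped too, with a log2 fold change of -0.06 (SE 0.12, adjusted p = 0.792). Within the libraries named with 11 it was -0.23 (adjusted p = 0.452), where the groups did not overlap.

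Gpihbp1 (chr15:75596630-75598213), the capillary carrier of the lipase, is made by endothelial cells and not by cardiomyocytes. Its CPM was 19.6, 23.0, 22.6 and 36.2 in FA and 26.7, 60.5, 41.9 and 35.2 in DE. The highest FA library lay above the lowest pair of DE libraries, and DE replicates 3 and 5, both named with 12, were the highest of all. The log2 fold change of 0.70 (SE 0.25) did not pass the test at an adjusted p of 0.109, and within the libraries named with 11 it was 0.28 (adjusted p = 0.583). Gpihbp1 was called by DESeq2 (0.70, adjusted p = 0.0455) and without DE replicate 1 (0.86, adjusted p = 0.0423), but was at 0.45 (adjusted p = 0.304) without DE replicate 3. Set against the sum of the 13 endothelial markers in the same library, its log2 ratio was -5.88 ± 0.29 in FA and -5.41 ± 0.42 in DE (SD, n = 4 each), with overlap. Among 6 capillary markers, Meox2 was called higher and Car4, a carbonic anhydrase on the surface of capillary endothelium, was called lower, from 11.9 ± 2.43 to 3.87 ± 0.86 CPM, so this list did not move one way. The 6 markers summed to 153.6 to 214.4 CPM in FA and 175.3 to 284.1 CPM in DE.

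Angptl4 (chr17:33774900-33781575), the inhibitor of the lipase and a known target of the fatty acid-sensing PPAR receptors, had the largest difference of the 10. FA replicates 2, 3, 4 and 6 were at 22.1, 19.9, 27.3 and 27.0 CPM. DE replicates 1, 3, 5 and 7 were at 4.21, 7.83, 6.41 and 4.48 CPM. Every DE library thus lay below every FA library, with DE replicates 3 and 5 the highest of DE. On the log2 scale this was a difference of -2.06 (SE 0.20, adjusted p = 0.000328). It was -2.48 (adjusted p = 0.000107) within the libraries named with 11 and stayed called under all 20 alternatives. The counts behind it ran from 400 to 826 in FA libraries and from 84 to 273 in DE libraries. Per library and per kilobase of exon, the log2 ratio of Angptl4 to Lpl was -5.49 ± 0.40 in FA and -7.53 ± 0.47 in DE (SD, n = 4 each), with no overlap, so the RNA of the inhibitor fell relative to that of the enzyme it acts on.

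**Figure D2:**
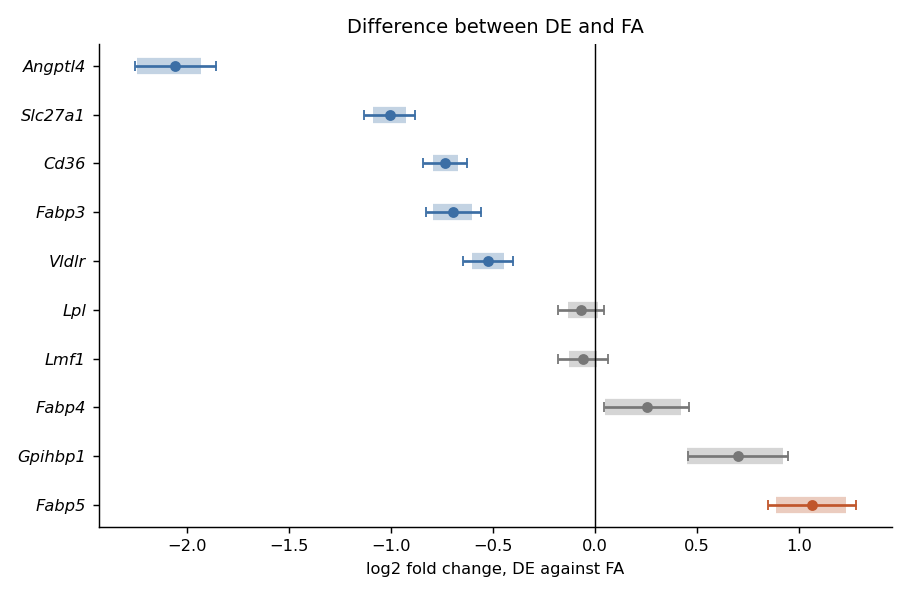
The log2 fold change of DE against FA for the 10 genes, with points for the fit on all 8 libraries, error bars for 1 SE and pale bands for the range when each library in turn was left out. Blue genes were called lower, the red gene was called higher and grey genes were not called, and Angptl4 at -2.06 and Fabp5 at 1.07 mark the ends.

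Cd36, Slc27a1 and Vldlr, which bring fatty acids or lipoproteins to the cell, were each called lower in DE with no overlap between groups, beside backgrounds of 2.22% called lower and 14.7% with no overlap, and Vldlr lost its call in 8 of the 20 alternatives. Other uptake genes were not called, with log2 fold changes of 0.17 for Slc27a3, -0.17 for Slc27a4, -0.11 for Slc27a6 and 0.67 for Mfsd2a, which were named after their values were seen. In that order they averaged 2.17, 23.3, 0.98 and 0.49 CPM over the 8 libraries. A difference in those at low levels could be missed. Upstream sequence is shown for 4 of the 5 genes that were lower, to give the promoter letters of genes with the same direction. RefSeq windows on GRCm38.p6 were found for 5 of the 10 genes, and the 250 bases before the first listed start of each lower gene are given 5′ to 3′ on the gene's own strand. The windows are Cd36 at chr5:17835897-17836146 (minus strand), Slc27a1 at chr8:71568621-71568870 (plus), Vldlr at chr19:27216234-27216483 (plus) and Fabp3 at chr4:130308488-130308737 (plus). The starts used for Cd36, Slc27a1 and Vldlr lie inside the spans given for these genes, so the whole window of Cd36 and the ends of the other two are within the gene. Capitals mark the 4 motifs searched on both strands, which were the nuclear receptor half-site AGGTCA, the GC box GGGCGG, the CCAAT box CCAAT and the TATA box TATAAA.
Cd36: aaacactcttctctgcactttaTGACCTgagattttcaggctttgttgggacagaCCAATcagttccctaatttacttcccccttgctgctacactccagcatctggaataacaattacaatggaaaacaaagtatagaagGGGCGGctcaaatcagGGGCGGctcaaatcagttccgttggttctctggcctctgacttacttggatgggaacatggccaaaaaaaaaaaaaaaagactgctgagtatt
Slc27a1: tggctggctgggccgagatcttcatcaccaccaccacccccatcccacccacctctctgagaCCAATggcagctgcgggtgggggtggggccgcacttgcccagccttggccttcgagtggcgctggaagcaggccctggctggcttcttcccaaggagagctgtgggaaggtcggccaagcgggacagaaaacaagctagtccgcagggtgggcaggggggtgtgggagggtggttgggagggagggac
Vldlr: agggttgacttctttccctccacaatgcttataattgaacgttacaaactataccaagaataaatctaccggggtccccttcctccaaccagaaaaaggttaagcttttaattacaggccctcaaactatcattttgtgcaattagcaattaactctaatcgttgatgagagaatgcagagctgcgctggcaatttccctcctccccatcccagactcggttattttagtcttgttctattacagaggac
Fabp3: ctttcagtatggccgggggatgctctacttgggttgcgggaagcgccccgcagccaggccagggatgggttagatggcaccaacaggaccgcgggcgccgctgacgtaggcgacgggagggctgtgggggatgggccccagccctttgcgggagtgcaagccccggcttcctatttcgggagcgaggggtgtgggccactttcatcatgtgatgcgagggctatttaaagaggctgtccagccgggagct
In Cd36 the half-site, in reverse complement, began at position -228, counted from the start, the CCAAT box at -195, and the GC boxes at -109 and -93. Slc27a1 held a CCAAT box at -188, and in the printed windows of Vldlr and Fabp3 none of the 4 motifs was found. Slc27a1 has further windows, which all hold GC boxes, and Vldlr has another, with a GC box at -42 and a CCAAT box at -78. Across the 7 windows listed for these 4 genes, the half-site was in 1, the GC box in 4, the CCAAT box in 4 and the TATA box in 0. Of all 32851 RefSeq windows of this length, 14.0% held the half-site, 32.7% the GC box, 33.8% the CCAAT box and 12.4% the TATA box. A match of letters describes the window and is not evidence of binding.

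Cd36 (chr5:17781690-17888959), the scavenger receptor that binds long-chain fatty acids at the surface of cardiomyocytes and endothelial cells, was among the more abundant RNAs of the group. FA replicates 2, 3, 4 and 6 held 1108, 1012, 1181 and 1282 CPM, and DE replicates 1, 3, 5 and 7 held 713.7, 728.5, 593.3 and 719.6 CPM. The lowest FA library stood well above the highest DE library, and DE replicate 5 stood below the other DE libraries, which lay close together. Its log2 fold change was -0.73 (SE 0.11, adjusted p = 0.0044), and -0.68 (adjusted p = 0.0298) within the libraries named with 11. It was called under all 20 alternatives, with adjusted p-values up to 0.0436.

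Slc27a1 (chr8:71568728-71587307) encodes FATP1, which couples fatty acid entry to activation with coenzyme A. Its libraries were at 81.1, 103.0, 86.2 and 81.7 CPM in FA and at 37.4, 47.1, 51.0 and 39.8 CPM in DE. All DE libraries were well below the lowest FA library. This gave a log2 fold change of -1.01 (SE 0.13, adjusted p = 0.0018), or -1.20 (adjusted p = 0.0024) within the libraries named with 11, and no alternative removed the call. It was the largest fall among the 3 uptake genes.

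Vldlr (chr19:27216480-27254231), a receptor that binds lipoproteins rich in triglyceride and apolipoprotein E, showed the smallest of the falls that were called. Its values were 260.7, 218.0, 252.5 and 193.4 CPM in FA and 174.7, 133.7, 163.7 and 171.4 CPM in DE. The groups did not overlap, although FA replicate 6 was near the highest DE libraries. The log2 fold change of -0.52 (SE 0.12, adjusted p = 0.0354) was the least stable of the lower genes. Within the libraries named with 11 it was -0.42 with an adjusted p of 0.167, and the call was also lost without FA replicate 2 (adjusted p = 0.118), FA replicate 3 (0.0582), FA replicate 4 (0.111), DE replicate 3 (0.0994) or DE replicate 5 (0.0670). Vldlr has the longest exons of the 10 genes, 8308 bases, and libraries differed in how long genes were represented. The difference in centred log2 CPM between the 10% of genes with the longest exons and the 10% with the shortest was 0.55, -0.25, 0.47 and -0.06 in FA and 0.13, -0.41, -0.54 and 0.14 in DE. With offsets for exon length, added after the data were seen, Vldlr was at -0.34 (adjusted p = 0.0394), still called. Fabp3, Fabp4 and Fabp5, with 823, 896 and 987 bases of exon, lie among the shortest 10%, and their values with offsets stand beside their results.

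The 3 FABP genes did not move alike, with Fabp3 lower, Fabp4 not called and Fabp5 higher. Fabp3 (chr4:130308738-130315463) encodes the heart-type protein of cardiomyocytes. FA replicates 2, 3, 4 and 6 had 1428, 1762, 1415 and 1618 CPM, and DE replicates 1, 3, 5 and 7 had 774.8, 1029, 1156 and 890.0 CPM. Again the groups did not overlap, and DE replicates 3 and 5 were the highest of DE. DE was below FA by a log2 fold change of -0.69 (SE 0.13, adjusted p = 0.0162) and -0.91 (adjusted p = 0.0132) within the libraries named with 11. With offsets for exon length it was -0.85. An exon of Fabp3 overlaps Zcchc17 on the opposite strand, and Zcchc17, whose mean was 13.1 ± 1.91 CPM over 4 FA libraries and 16.0 ± 1.16 CPM over 4 DE libraries (± SD), is far less abundant. Both Fabp3 and Fabp5 have pseudogene copies, and how reads shared with such copies were counted was not given in the sources used here.

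Fabp4 (chr3:10204342-10208616), the adipocyte and endothelial FABP, had 268.4, 278.4, 303.6 and 423.4 CPM in FA and 261.4, 531.3, 390.8 and 335.6 CPM in DE. The lowest library and the highest library were both DE, and the log2 fold change of 0.25 (SE 0.21, adjusted p = 0.464) turned to -0.10 within the libraries named with 11. It was 0.0477 without DE replicate 3, 0.42 without FA replicate 6 and 0.0952 with offsets for exon length. The adipocyte markers Adipoq, Lep, Plin1, Cidec, Cfd and Retn were at or near 0, as given above. Of the rest of that list, Cidea was detected and called lower, and Ucp1 was at most 1.98 CPM. The log2 ratio of Fabp4 to the endothelial sum was -2.21 ± 0.18 in FA and -2.19 ± 0.36 in DE (SD, n = 4 each).

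Fabp5 (chr3:10012585-10016610), the epidermal-type FABP that endothelial cells and macrophages also make, was the only gene of the 10 called higher. Gpihbp1 and Fabp4 also had fold changes above 0 but were not called. Its CPM was 24.9, 34.5, 27.9 and 43.2 in FA and 52.9, 91.6, 77.0 and 50.9 in DE. Each DE library was above each FA library, with DE replicates 3 and 5 well above the rest. DE exceeded FA by a log2 fold change of 1.07 (SE 0.22, adjusted p = 0.0197). With offsets for exon length it was 0.92 (adjusted p = 0.0056), while DE replicates 3 and 5, the highest for Fabp5, were also the libraries in which short genes were most represented. Within the libraries named with 11 it was 0.67 with an adjusted p of 0.105, where the groups still did not overlap, and the call was lost without FA replicate 2 (adjusted p = 0.0689), FA replicate 4 (0.0734) or DE replicate 3 (0.0591). Against the summed endothelial markers, its log2 ratio was -5.51 ± 0.32 in FA and -4.67 ± 0.42 in DE (SD, n = 4 each), with no overlap, so it differed between groups by more than the endothelial sum did. This ratio was not adjusted for exon length, and the markers had 1416 (Cldn5) to 10961 (Flt1) bases of exon, all more than Fabp5. The part of exon length in the ratio was not tested. The macrophage sum was 17.4, 22.1, 20.1 and 22.5 CPM in FA and 25.7, 34.5, 28.3 and 23.5 CPM in DE, which put the 8 libraries in the same order as Fabp5 did. Cd68 was the most abundant marker of this sum, with means of 8.15 CPM in FA and 12.7 CPM in DE. Of the 6 tested markers 5 had fold changes above 0, and Csf1r was below 0, with means of 3.20 and 2.76 CPM. The part of macrophage RNA in the difference was not tested.

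**Figure D3:**
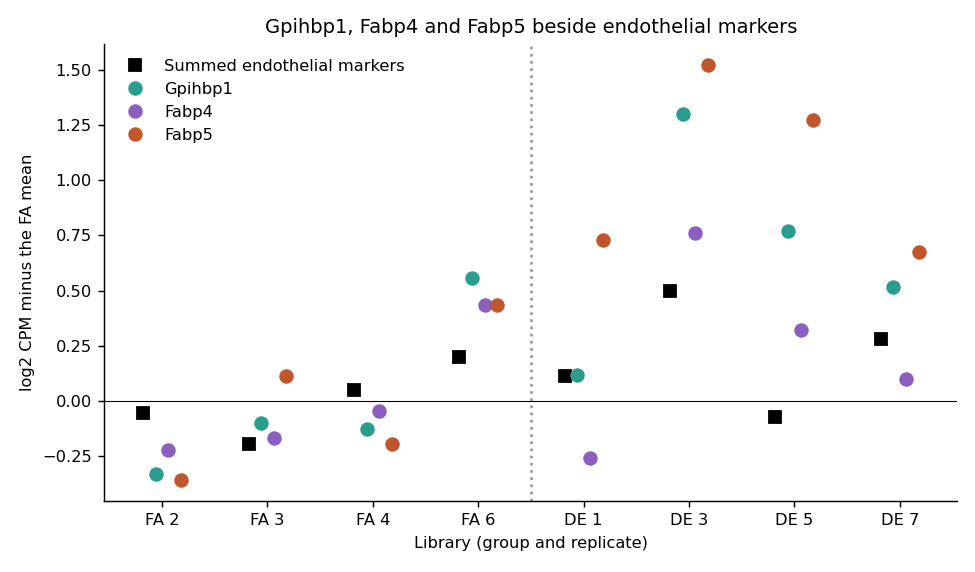
For each library, the log2 CPM of Gpihbp1, Fabp4, Fabp5 and the sum of 13 endothelial markers, each minus its own mean in FA. In DE replicate 3 the endothelial sum (2056 CPM), Gpihbp1 (60.5 CPM) and Fabp5 (91.6 CPM) were each the highest of the 8 libraries. In DE replicate 5 the endothelial sum was 1381 CPM, the lowest of DE, while Gpihbp1 was at 41.9 CPM and Fabp5 at 77.0 CPM, both the next to highest of the 8 libraries.

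Levels of different genes were compared as CPM per kilobase of exon, with the exons of all basic GENCODE isoforms of a gene joined. For Gpihbp1 these come to 2095 bases, more than its RefSeq span, so its level is a low estimate and its place beside Lmf1 and Vldlr is not read. In FA the order was Fabp3 (1891 ± 202), Fabp4 (355 ± 79.8), Lpl (325 ± 41.9), Cd36 (324 ± 32.3), Fabp5 (33.0 ± 8.22), Slc27a1 (31.0 ± 3.60), Vldlr (27.8 ± 3.76), Gpihbp1 (12.1 ± 3.53), Lmf1 (9.21 ± 0.93) and Angptl4 (7.28 ± 1.10; SD, n = 4 for each). Neighbours whose libraries overlapped were Fabp4 and Lpl, Lpl and Cd36, Fabp5 and Slc27a1, and Slc27a1 and Vldlr. The heart-type Fabp3 thus stood apart at the top, while Angptl4, at up to 8.24, came close to Lmf1, at 8.30 or more. In DE the order was Fabp3 (1169 ± 201), Fabp4 (424 ± 127), Lpl (310 ± 24.4), Cd36 (195 ± 18.1), Fabp5 (69.0 ± 19.9), Gpihbp1 (19.6 ± 6.86), Vldlr (19.4 ± 2.25), Slc27a1 (15.4 ± 2.22), Lmf1 (8.82 ± 1.14) and Angptl4 (1.73 ± 0.52). Here Fabp4 overlapped with Lpl and Vldlr with Slc27a1. Cd36 was level with Lpl in FA and below it in every DE library. Among the 13851 tested genes with a known length, Fabp3 ranked 21 in FA and 30 in DE, Slc27a1 ranked 1829 and 3606, Angptl4 ranked 6327 and 10271, and Fabp5 ranked 1688 and 772.

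As shares of the summed FABP level per kilobase, Fabp3 made up 83.0% ± 2.94 in FA and 70.7% ± 4.12 in DE, Fabp4 15.6% ± 2.77 and 25.2% ± 3.74, and Fabp5 1.44% ± 0.23 and 4.11% ± 0.56 (SD, n = 4 each). The mix in DE thus held more of both FABPs that are not the heart type, while the sum itself was 2279 ± 238 CPM per kilobase in FA and 1662 ± 319 CPM per kilobase in DE. On the log2 scale, the ratio of Fabp5 to Fabp3 was -5.86 in FA and -4.11 in DE, and that of Fabp4 to Fabp3 was -2.43 and -1.496, both with no overlap. A share rises when another gene falls, so the higher share of Fabp4 goes with a level that was not called different.

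**Figure D4:**
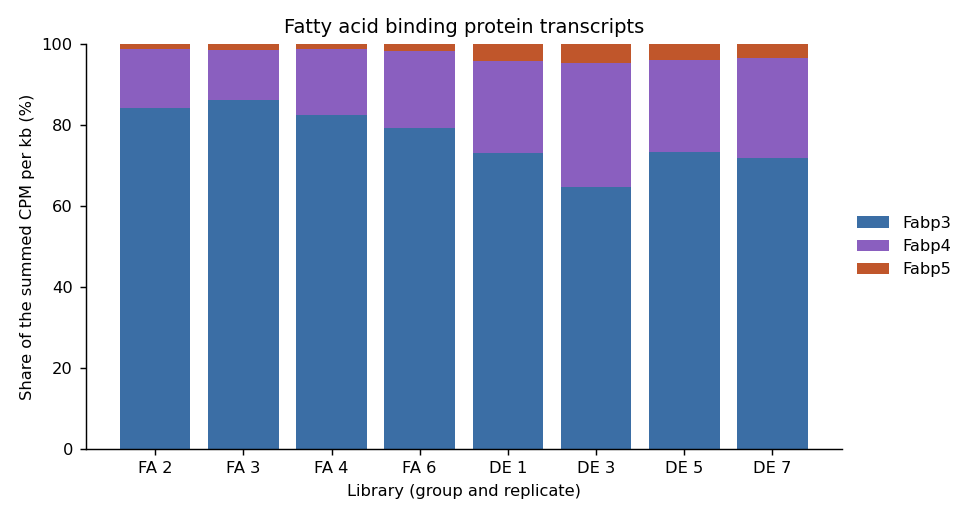
Percent of the summed CPM per kilobase of Fabp3, Fabp4 and Fabp5 held by each gene in the 8 libraries, as stacked bars from 0 to 100. In FA, Fabp3 holds 79.2% to 86.1% of the sum, and in DE it holds 64.6% to 73.2%.

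Other genes of lipoprotein handling were taken as a list of 28, of which 20 were tested. Of these, 0 were called lower and 2 higher, where the backgrounds were 2.22% and 3.58%, and DESeq2 called 1 lower and 2 higher. At an unadjusted p under 0.05, 2 were lower and 5 higher, and the median log2 fold change was 0.12. Pcsk6, a proprotein convertase that can cleave LPL and angiopoietin-like proteins, had 12.9, 8.92, 15.2 and 15.05 CPM in FA and 21.9, 21.9, 20.0 and 21.6 CPM in DE, a log2 fold change of 0.71 (SE 0.15, adjusted p = 0.0247). Sdc4, a heparan sulfate proteoglycan of the cell surface, a class to which LPL binds, had 19.5, 20.1, 20.7 and 26.2 CPM in FA and 32.4, 31.8, 30.3 and 28.9 CPM in DE, a log2 fold change of 0.52 (SE 0.11, adjusted p = 0.0269). Neither gene overlapped between groups. Both calls were lost without FA replicate 2 (adjusted p = 0.0822 for Pcsk6 and 0.0976 for Sdc4) or DE replicate 3 (0.0698 and 0.0797), and that of Sdc4 also without FA replicate 3 (0.0656) or FA replicate 4 (0.0988). Within the libraries named with 11, Pcsk6 was at 0.74 (adjusted p = 0.0757) and Sdc4 at 0.50 (adjusted p = 0.105), neither of them called. Abundant genes that were not called included Apoe (0.44, adjusted p = 0.110), Sel1l (-0.17), which works with LMF1 in the maturation of LPL, Furin (-0.03), Sdc2 (0.13), Hspg2 (0.12), the receptor Lrp1 (0.30), and Sort1 (-0.11), all as log2 fold changes. With offsets for exon length, Lrp1 (0.60, adjusted p = 0.0345) and Hspg2 (0.42, adjusted p = 0.0432) were called. Leaving out single libraries moved Lrp1 from 0.0164 (without DE replicate 1) to 0.47 (without FA replicate 2), and Hspg2 from 0.0087 (without FA replicate 6) to 0.23 (without FA replicate 4). Likewise Sdc2 moved from 0.0197 (without DE replicate 1) to 0.22 (without DE replicate 5), Sel1l from -0.30 (without DE replicate 7) to -0.0609 (without DE replicate 5) and Sort1 from -0.19 (without DE replicate 1) to -0.0542 (without FA replicate 2). Over all 20 alternatives Sdc2 ran from 0.0197 to 0.34 and Apoe from 0.26 to 0.53. The lipases Lipc and Lipg, the apolipoproteins Apoc1, Apoc2, Apoc3, Apoa5 and Apob and the inhibitor Angptl8 did not pass the filter, each with 76 counts or fewer in all 8 libraries together.

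Other genes of fatty acid transport were a list of 25, with 17 tested, 1 called lower and 1 called higher, where the backgrounds were 2.22% and 3.58%, and a median log2 fold change of 0.03. DESeq2 called 1 lower and 2 higher. Zdhhc5, a palmitoyltransferase that acts on CD36, had 124.9, 114.6, 127.5 and 108.0 CPM in FA and 96.0, 91.7, 90.7 and 94.7 CPM in DE, a log2 fold change of -0.35 (SE 0.09, adjusted p = 0.0455). The groups did not overlap, but the call was lost in 14 of the 20 alternatives. These were every library left out except FA replicate 6, with adjusted p-values from 0.0554 without DE replicate 1 to 0.144 without FA replicate 4, the 25% difference built in, no filter, library totals alone, upper quartile factors, offsets for exon length (where FA was less than 25% above DE), the sample-name number as a term, and the libraries named with 11 (-0.32, adjusted p = 0.207). Pmp2, the FABP of myelin, which lies in the same cluster on chromosome 3 as Fabp4 and Fabp5, had a mean of 0.257 ± 0.0996 CPM over the 4 FA libraries and 0.843 ± 0.320 CPM over the 4 DE libraries (± SD). Its log2 fold change of 1.63 (SE 0.37, adjusted p = 0.0290) rests on 125 counts in all, and its call was lost without FA replicate 2 (0.0983), FA replicate 3 (0.0684), FA replicate 4 (0.0929) or DE replicate 3 (0.0792), and within the libraries named with 11 (1.66, adjusted p = 0.105). Its cluster neighbours Fabp9 and Fabp12 did not pass the filter, with 34 and 51 counts over the 8 libraries. Cav1, the caveolar protein that supports CD36 at the membrane, averaged 311.2 ± 66.2 CPM over the FA libraries and 488.5 ± 113.1 CPM over the DE libraries (± SD, n = 4 per group), and its difference of 0.65 on the log2 scale did not pass the test (SE 0.18, adjusted p = 0.0566). It passed in 7 of the 20 alternatives, namely DESeq2 (adjusted p = 0.0111), the likelihood ratio test (0.0113), library totals alone (0.0420), no filter (0.0419), offsets for exon length (0.0361), and without FA replicate 6 (0.0314) or DE replicate 1 (0.0358). Within the libraries named with 11 it was 0.50 (adjusted p = 0.197). The other abundant genes that were not called had log2 fold changes of -0.13 for Got2, -0.01 for Dbi, 0.07 for Scarb1, 0.03 for Scarb2, 0.03 for Cavin1, -0.21 for Lypla1 and 0.22 for Selenok. Of these, Got2 moved from -0.20 (without FA replicate 4) to -0.0658 (without FA replicate 6), Scarb1 from 0.0184 (without DE replicate 3) to 0.10 (without DE replicate 5) and Lypla1 from -0.35 (without DE replicate 7) to -0.13 (without DE replicate 5). Fabp1, the liver FABP, had 0 counts in every library.

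**Figure D5:**
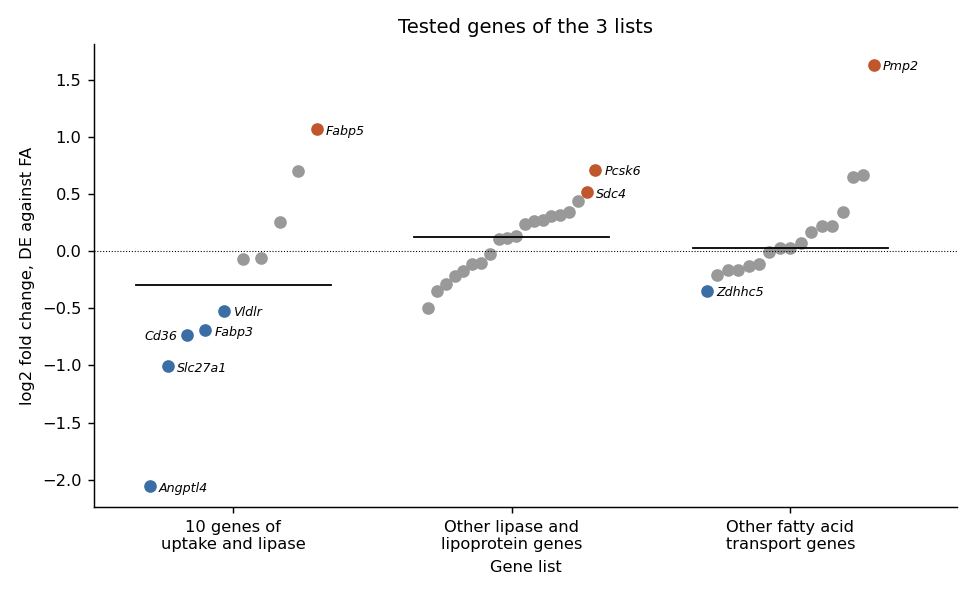
The log2 fold change of DE against FA for each tested gene of the 10 uptake and lipase genes, of 20 other lipoprotein genes and of 17 other transport genes, ordered by value within a list, with a horizontal line at each list's median. Blue and red genes were called lower and higher, with the medians at -0.30, 0.12 and 0.03.

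For the gene with the smallest adjusted p in each direction, the most similar patterns over the 8 libraries were sought among 13119 other genes that averaged 1 CPM or more, by the root mean square difference of log2 CPM centred on the mean. For Angptl4, whose own spread was 1.08, they were the acyl-CoA thioesterase genes Acot2 (0.306) and Acot1 (0.321) and the lipid droplet gene Plin5 (0.344). Acot1 and Acot2 are close paralogs, so how shared reads were divided between them is uncertain. Acot2 had means of 157.4 ± 6.90 CPM over the FA libraries and 45.3 ± 3.53 CPM over the DE libraries, and Plin5 at 22.6 ± 3.24 and 7.74 ± 1.83 CPM (SD, n = 4 each). For Fabp5, whose own spread was 0.620, they were S100a10 (0.109), which encodes the partner of annexin A2, the placental growth factor gene Pgf (0.123) and Ppp1r14a (0.142), an inhibitor of myosin phosphatase. S100a10 reached at most 39.7 CPM in FA and was at 47.1, 75.6, 64.9 and 51.8 CPM in DE, with its highest values in DE replicates 3 and 5, as for Fabp5.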

How the data were processed

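Poly-A RNA of 8 NCM samples was sequenced from stranded libraries. The authors aligned reads to mm10 with Tophat and Ensembl v67, marked duplicates without removing them, processed alignments with GATK counted fragments with featureCounts, and deposited raw counts by Entrez gene number, without normalisation. The strand setting and the counting of fragments that map to several places are not given in the sources used here. Whether marked duplicates were counted is not given either; where they were, counts are not independent molecules.

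Of 27179 genes, 93.0% had a symbol in a RefSeq table on GRCm38.p6, which also gave coordinates and promoter windows. Exon lengths are the joined exons of GENCODE M21 (basic set) on GRCm38. Groups follow the labels, and all 8 libraries were used although the methods state n = 3 per group. In R 4.3.3, edgeR 4.0.16 kept 14966 genes (filterByExpr, minimum count 10), scaled them by TMM and compared DE with FA by the quasi-likelihood test (glmQLFit, glmQLFTest), exposure the only term, with Benjamini-Hochberg adjustment over all tested genes. Every adjusted p is from this test unless another is named. CPM is normalised by TMM. The code was tested on simulated data. Libraries are separate hearts of unknown litter, so p-values measure the spread between these hearts.

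The 10 genes and all lists were chosen with earlier results of these data known. The genes named were the 10, every called gene of the lists of lipoprotein and of transport genes, every gene of both that averaged 50 CPM or more, and for 2 of the 10 the 3 most similar genes. Of the genes this rule named, 1 is not reported here. Markers and other list members were named outside this rule. The 20 alternatives were each library left out in turn, DESeq2 1.42.0, edgeR's likelihood ratio test, limma-voom (limma 3.58.1), the 25% difference built into the test, 3 other scalings, 2 other filters, the sample-name number as a term, only those libraries named with 11 and, added after the data were seen, offsets for exon length (spline with 5 degrees of freedom).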

Additional observations from a re-analysis of the deposited data

Results flagged for a closer look

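In DE, the Cd36 level of replicate 5, at 593.3 CPM, stood apart from replicates 1, 7 and 3, at 713.7, 719.6 and 728.5 CPM. Its gap to the nearest other library was 0.891 of the whole range of the group, above Dixon's critical value for 4 libraries. Of the 20 sets of 4 libraries examined, 1 was above it, and chance gives about 1 in 20. Without DE replicate 5, Cd36 remained called lower in DE.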

How the results depend on the processing

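Under all 20 alternatives Angptl4, Cd36 and Slc27a1 kept their direction and their call, and Fabp3 lost its call in 1, with the 25% difference built into the test (adjusted p = 0.122). Vldlr and Fabp5 lost theirs there (0.342 and 0.0849) and with the number in the sample name as a term (0.146 and 0.0745), beside the losses given above. Of the 10 genes, 6 were called, with 3 when the 25% difference was built in and 4 to 7 when single libraries were left out (4 without FA replicate 2, FA replicate 4 or DE replicate 3). Of the lipoprotein genes 2 were called, with 0 when the 25% difference was built in, 1 with the number in the sample name as a term, 0 in libraries named with 11 only, 5 with offsets for exon length and 0 to 2 without single libraries (0 without FA replicate 2 or DE replicate 3). Of the transport genes 2 were called, with 0 when the 25% difference was built in, 1 with upper quartile factors, 1 at a mean of at least 1 CPM, 0 with the number as a term, 0 in libraries named with 11 only and 0 to 3 without single libraries (0 without FA replicate 2, 3 or 4 or DE replicate 3). The cause was not tested. Over all tested genes 868 were called, 1620 by DESeq2, 1603 by the likelihood ratio test, 1378 with offsets, 448 with the number as a term, 260 in libraries named with 11, 114 with the 25% difference built in, and 237 to 1168 without single libraries, with 237 lacking FA replicate 4, 249 lacking FA replicate 2, 268 lacking DE replicate 3, 433 lacking FA replicate 3 and 526 lacking DE replicate 5.

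Among the 30 genes of the 3 lists chosen by the naming rule, those whose sign turned were not called. With the number as a term and in libraries named with 11, the log2 fold changes were -0.0934 and -0.0977 for Fabp4, 0.0602 and 0.0561 for Sel1l, 0.0096 and 0.005 for Furin, 0.0208 and 0.0165 for Sort1, and -0.002 and -0.0067 for Cavin1. With library totals alone, which moved the median of all tested genes from 0.0037 to 0.0755, they were 0.0019 for Lpl, 0.0134 for Lmf1, 0.0435 for Furin and 0.0627 for Dbi. Furin was at 0.0007 and Scarb2 at -0.0512 with limma-voom, Furin at 0.0334 and Sort1 at 0.0353 with offsets, and Dbi at 0.0168 with upper quartile factors and 0.0033 without a filter. Leaving out single libraries gave ranges of -0.13 to 0.014 for Lpl, -0.13 to 0.0112 for Lmf1, -0.17 to 0.0323 for Furin, -0.12 to 0.079 for Dbi, -0.19 to 0.21 for Scarb2 and -0.0128 to 0.0767 for Cavin1. Over all 20 alternatives Scarb2 ran from -0.19 to 0.46. No paired analysis was made because the labels pair no FA library with a DE library. Over these 30 genes, 507 of 599 alternative values kept direction and side of the threshold. Untested list members had too few counts to show a difference at this depth.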
